A study of Mus musculus with 30 samples.

Results

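The proteasome genes described here are the 48 genes whose symbol begins with Psma, Psmb, Psmc, Psmd, Psme, Psmf or Psmg and a digit, out of 41549 genes in the table. Of the 50 genes with such a symbol, Psma8 and Psmb11 were left out because their mean was under 1 TPM in all 3 tissues, and 0 carried the ending of a pseudogene. Transcripts were sequenced in iWAT (the inguinal white fat depot), iBAT (the interscapular brown fat depot) and liver. All 3 tissues came from each of 10 male mice, 5 LFABP-/- and 5 WT, which gave 6 groups of 5 libraries. LFABP-/- mice lack the liver fatty acid-binding protein, encoded by Fabp1, in the whole body from conception, and both genotypes were on the C57Bl/6J background. All mice, WT included, were fed a diet with 45 kcal % fat, high in saturated fat, for 12 weeks from 2 months of age and were food deprived for 4 h before collection, so no comparison with a low-fat diet is contained in these libraries. The values are treated as TPM, which divide each transcript's reads by its length and give every library the same total: the authors' table names them RPKM, but they sum to between 999967 and 999996 in every library. They carry 1 decimal, and the depth of sequencing behind them is unknown.

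The proteasome is the protease complex that degrades most ubiquitin-tagged proteins in the cytosol and nucleus. Its 20S core is a barrel of stacked rings, in which the alpha subunits form the gate and 3 of the beta subunits carry the active sites, and the 19S cap binds, unfolds and feeds in the substrate with a ring of ATPases and a set of non-ATPase subunits. Interferon and immune cells bring in the immunoproteasome subunits Psmb8, Psmb9 and Psmb10, which take the places of the constitutive catalytic subunits Psmb5, Psmb6 and Psmb7 and favour the peptides that are presented on MHC class I. In brown fat, proteasome activity is known to be adjusted to thermogenic demand, and the transcription factor Nfe2l1 is known to drive subunit genes there.

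By role, the 48 genes were 7 alpha and 7 beta subunits of the 20S core, 3 immunoproteasome subunits, 6 ATPases and 11 non-ATPase subunits of the 19S cap, 4 activators (Psme1 to Psme4), 1 inhibitor (Psmf1), 7 assembly factors (Psmd5, Psmd9, Psmd10 and Psmg1 to Psmg4) and 2 others. The others were Psmc3ip, which shares the symbol's beginning but acts in meiotic recombination, and Psme2b, a near copy of Psme2 between which reads may have been divided uncertainly. The 48 genes lay on 16 chromosomes, with at most 10 on 1 chromosome. Exons of Psmb7, Psmb9, Psmc3, Psmc3ip and Psmd13 overlapped those of Nek6, Tap1, Slc39a13, Mlx and Sirt3 on the opposite strand, and reads of such pairs cannot be told apart in a library that keeps no strand.

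The libraries held between 16470 and 20502 genes above 0. Fabp1 stood at 51.8, 13.7, 0.3, 0.6 and 0.2 TPM in LFABP-/- livers, against 12672.1, 12697.6, 9165.5, 11860.2 and 12327.2 TPM in WT livers. In iBAT Fabp1 stood at 0.4, 2.0, 21.2, 15 and 13.1 TPM in LFABP-/- libraries, against 1.4, 0.2, 0.4, 5.1 and 8.7 TPM in WT libraries, so the libraries labelled LFABP-/- replicates 3, 4 and 5 were above every WT library and went against their label. In iWAT the library labelled LFABP-/- replicate 1 went against its label with 196.1 TPM of Fabp1, where the other 4 LFABP-/- libraries had 0.2 to 0.9 TPM and the WT libraries 1.9 to 23.9 TPM. Its 6 liver markers (Alb, Apoa1, Ttr, Serpina1c, Ahsg and Fgb) averaged 7.74 on the log2 scale, the highest of the 10 iWAT libraries. In iBAT the same markers averaged 4.20 to 7.46 in LFABP-/- libraries and -0.16 to 3.35 in WT libraries, with no overlap. Lymphocyte markers divided the iWAT libraries: 5 of them (LFABP-/- replicates 2, 3 and 4, WT replicates 3 and 4) had a mean log2 of 4.98 to 6.89 and the other 5 of 0.60 to 1.30. Brown adipocyte markers averaged 9.29 to 10.88 in iBAT, liver markers 13.02 to 13.61 in liver and adipocyte markers 10.58 to 11.73 in iWAT. Mitochondrially encoded genes held 53.3% to 60.1% of the total in iBAT, against 13.2% to 20.6% in iWAT and 12.1% to 18.1% in liver. In liver their share did not overlap between genotypes, at 16.9% to 18.1% in LFABP-/- and 12.1% to 15.1% in WT libraries. The summed liver markers in liver did not overlap either, at 79792 to 102288 TPM in LFABP-/- and 110273 to 131565 TPM in WT libraries. In bulk tissue, fewer cells of a type and less RNA per cell cannot be told apart.

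The subunits of the core did not have equal TPM values, although the complex holds them in equal numbers. Psmb5, which carries the chymotrypsin-like site, had the highest level of the 14 core subunits in every tissue, with means of 308.15 TPM in iWAT, 313.65 TPM in iBAT and 250.26 TPM in liver over both genotypes. The lowest were Psma2 in iWAT (61.4 TPM) and in liver (35.38 TPM) and Psmb1 in iBAT (29.64 TPM), so the highest core subunit exceeded the lowest by 5.02 times in iWAT, 7.07 times in liver and 10.6 times in iBAT. Assembly factors, which leave the particle once it is built, were lower, from 4.24 TPM (Psmg3 in iBAT) to 46.95 TPM (Psmg4 in iWAT). TPM values are divided by length, and the annotated exons cover 899 bases in Psmb5, 3673 in Psma2 and 4595 in Psmb1. Over ribosomal protein genes the values fell with exon length, so levels are not directly comparable between genes. How far length enters the differences above was not tested, and effects of the poly(A) selection were not measured.

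The promoters of the genes on which the results turn are printed from RefSeq (GRCm38.p6), each from 250 bases before to 50 after the start that RefSeq gives. Of the 48 genes, 41 had an entry. Capitals mark the motifs searched on both strands: the CCAAT box, the core of the antioxidant response element (TGACNNNGC), a gamma-activated sequence (TTCNNNGAA), which STAT factors bind, and an interferon-stimulated response element (GAAANNGAAA). Psmb5 (chr14:54617946-54618245, minus strand) is shown because it had the largest difference of the genes called in iBAT. Psmb8 (chr17:34197945-34198244, plus strand), Psmb9 (chr17:34187281-34187580, minus strand) and Psmb10 (chr8:105938343-105938642, minus strand) are the immunoproteasome genes. Psme1 (chr14:55578244-55578543, plus strand) encodes a subunit of the interferon-induced activator.
Psmb5: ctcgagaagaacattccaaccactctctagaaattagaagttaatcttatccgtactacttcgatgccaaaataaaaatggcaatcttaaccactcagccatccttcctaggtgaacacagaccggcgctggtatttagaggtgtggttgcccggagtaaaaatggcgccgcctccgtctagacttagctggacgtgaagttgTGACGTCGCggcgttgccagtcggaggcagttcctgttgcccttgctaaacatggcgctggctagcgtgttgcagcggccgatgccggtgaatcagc
Psmb8: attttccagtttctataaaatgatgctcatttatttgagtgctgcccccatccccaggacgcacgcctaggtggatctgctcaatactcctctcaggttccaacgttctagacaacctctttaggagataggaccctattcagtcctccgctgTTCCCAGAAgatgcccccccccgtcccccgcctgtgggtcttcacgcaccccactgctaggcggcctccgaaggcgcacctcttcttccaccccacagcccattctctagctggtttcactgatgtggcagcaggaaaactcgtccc
Psmb9: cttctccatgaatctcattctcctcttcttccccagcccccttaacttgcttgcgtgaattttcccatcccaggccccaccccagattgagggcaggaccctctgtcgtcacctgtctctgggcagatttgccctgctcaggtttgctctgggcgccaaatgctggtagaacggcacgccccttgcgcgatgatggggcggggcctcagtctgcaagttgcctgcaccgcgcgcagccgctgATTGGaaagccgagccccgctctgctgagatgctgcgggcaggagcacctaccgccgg
Psmb10: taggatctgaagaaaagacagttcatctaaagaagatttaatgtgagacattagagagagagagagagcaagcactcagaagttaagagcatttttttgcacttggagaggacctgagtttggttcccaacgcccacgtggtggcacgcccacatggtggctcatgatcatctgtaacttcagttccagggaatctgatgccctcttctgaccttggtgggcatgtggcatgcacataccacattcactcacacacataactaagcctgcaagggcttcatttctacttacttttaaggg
Psme1: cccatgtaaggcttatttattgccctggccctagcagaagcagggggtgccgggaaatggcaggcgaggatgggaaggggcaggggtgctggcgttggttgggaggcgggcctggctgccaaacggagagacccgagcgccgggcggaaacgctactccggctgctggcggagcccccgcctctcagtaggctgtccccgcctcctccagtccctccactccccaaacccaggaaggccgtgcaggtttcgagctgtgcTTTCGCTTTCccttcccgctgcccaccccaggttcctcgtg

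In the Psmb5 promoter the capitals are an antioxidant response element core at base -47 from the start, in that of Psmb8 a gamma-activated sequence at -97, in that of Psmb9 a CCAAT box on the reverse strand at -8, and in that of Psme1 an interferon-stimulated response element at 10, on the transcribed side of the start. The Psmb10 window held none of these letters. Psmb8 and Psmb9 both lie in the MHC, 9956 bases apart. Over the 41 genes, the antioxidant response element core was in the promoters of 6 (14.6%: Psmb5, Psmb6, Psmc6, Psmd9, Psmd12 and Psme4), against 14% of all 27025 genes with a promoter entry, the CCAAT box in 14 (34.1%, against 41.1%), the gamma-activated sequence in 3 (7.32%, against 9.55%) and the interferon-stimulated response element in 5 (12.2%, against 3.99%: Psmb3, Psmd4, Psmd9, Psme1 and Psmg4). A match of letters is a description and not a bound site.

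The first question was whether proteasome transcripts differed between LFABP-/- and WT mice. In iBAT, transcripts of the constitutive proteasome rose in LFABP-/- mice, across the core, the cap and 1 activator. Of the 48 genes, 26 were called higher and 0 lower (limma, adjusted p under 0.1), where 22.3% of all 11614 genes tested were called higher and 25.5% lower. The median log2 difference of the 48 genes was 0.19, against -0.03 over all genes tested, and 40 of the 48 were positive. The called genes were 11 of 14 core subunits, 4 of 6 ATPases, 7 of 11 non-ATPase subunits, 1 of 4 activators, the inhibitor and 2 of 7 assembly factors, and none of the 3 immunoproteasome genes was called. For 17 genes every LFABP-/- library was above every WT library, which held for 12.1% of all genes tested.

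**Figure D1:**
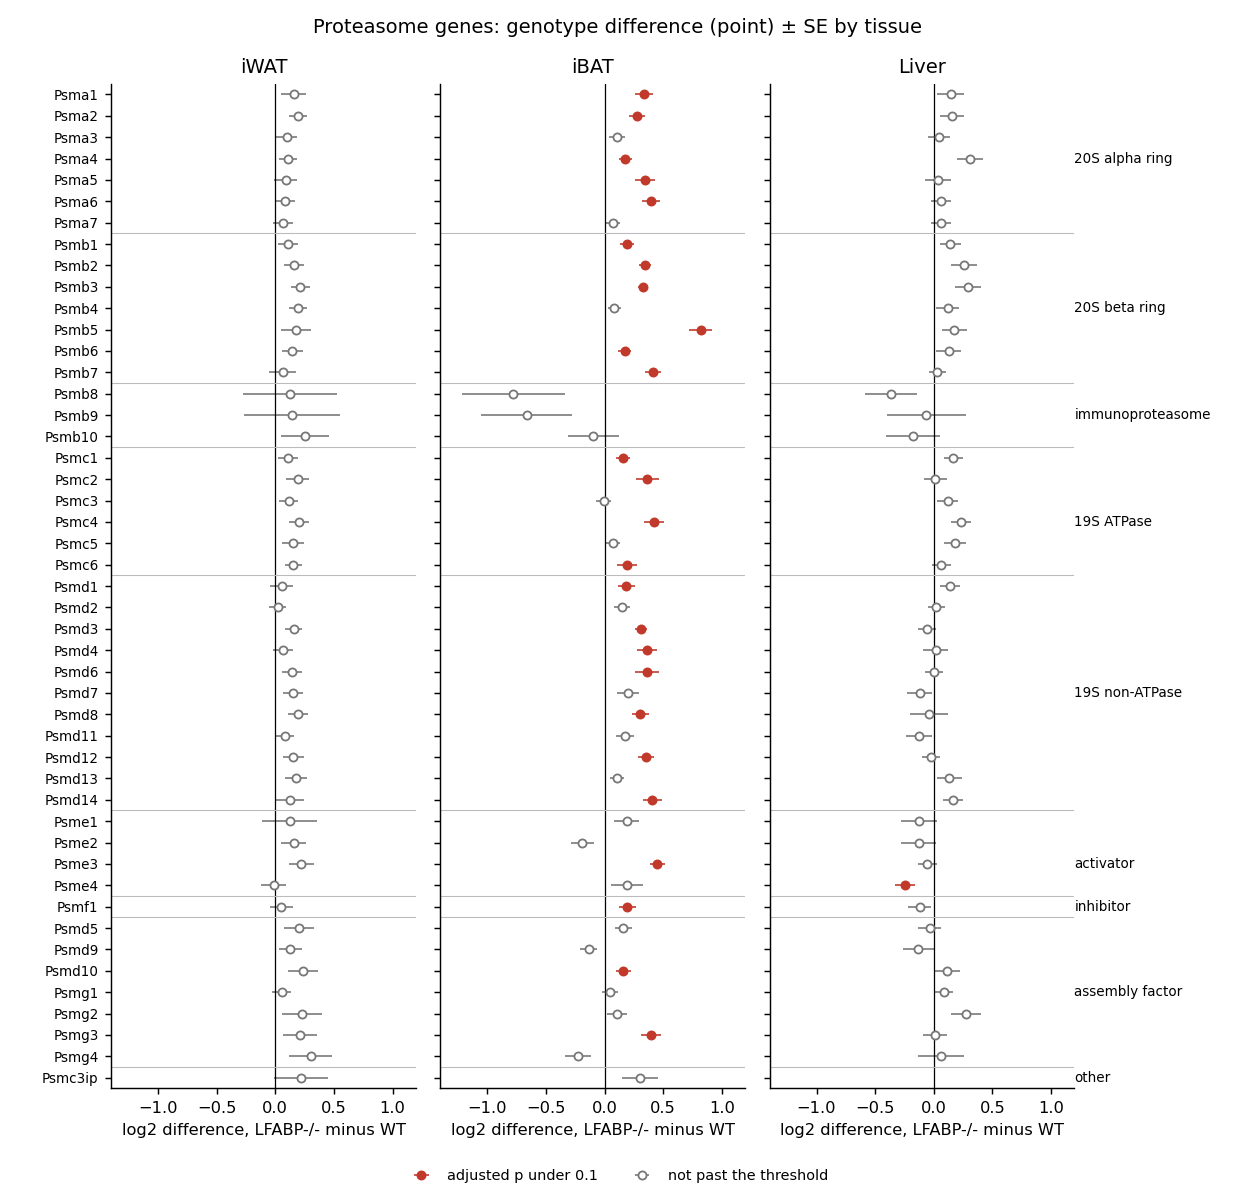
Difference between LFABP-/- and WT mice (log2, point) with its standard error (line) for 47 proteasome genes, ordered by role, in iWAT, iBAT and liver; filled red points passed an adjusted p under 0.1. In iBAT 26 genes are filled, all to the right of 0, with Psmb5 farthest at 0.82, in liver Psme4 is filled on the left, and in iWAT none is filled. Psme2b, at -1.66 in liver, lies outside the axis and is not drawn.

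Psmb5 changed most. It had 441.3, 477.3, 383.8, 380.1 and 326.6 TPM in LFABP-/- iBAT, against 222.5, 244.6, 204.9, 222.1 and 233.3 TPM in WT iBAT. The lowest LFABP-/- library was above the highest WT library, and the means were 401.8 ± 58.5 and 225.5 ± 14.8 TPM (SD, n = 5 each). The difference was 0.82 ± 0.10 on the log2 scale (SE), a fold of 1.77 (adjusted p = 0.000262). The other constitutive catalytic subunits changed less. Psmb7, with the trypsin-like site, had 108.2, 108.4, 95.2, 91.2 and 90.6 TPM in LFABP-/- iBAT, against 72.6, 72.4, 72.0, 72.7 and 79.6 TPM in WT iBAT, without overlap (log2 0.41 ± 0.07, adjusted p = 0.00123). Psmb6, with the caspase-like site, had 101.8, 100.8, 101.2, 97.8 and 95.5 TPM in LFABP-/- iBAT and 83.8, 85.5, 84, 90.7 and 97.5 TPM in WT iBAT, where only WT replicate 5 reached into the LFABP-/- range (log2 0.17 ± 0.05, adjusted p = 0.0277).

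**Figure D2:**
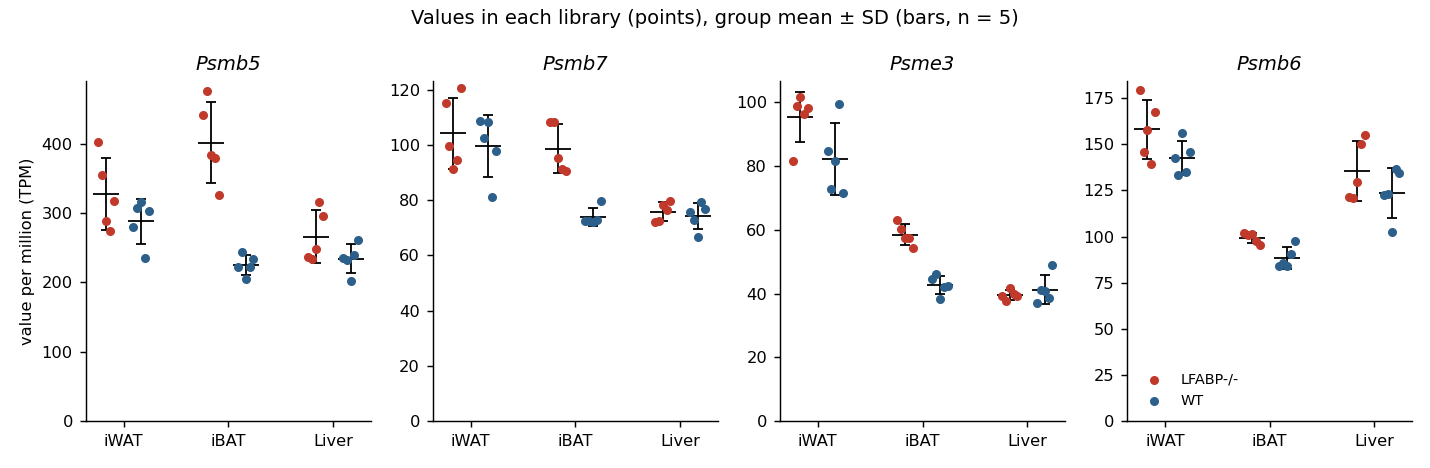
TPM of Psmb5, Psmb7, Psme3 and Psmb6 in each library of LFABP-/- and WT mice by tissue (points), with the mean ± SD of 5 libraries (bars). In iBAT the points of Psmb5, Psmb7 and Psme3 separate the genotypes, with Psmb5 at 326.6 to 477.3 TPM in LFABP-/- and 204.9 to 244.6 TPM in WT libraries, while in iWAT and liver the genotypes overlap.

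Among the structural subunits of the beta ring, Psmb3 and Psmb2 had the smallest p. Psmb3 had 85.3, 86.1, 82.5, 82.7 and 80.8 TPM in LFABP-/- iBAT, against 66.2, 66.2, 65.5, 68.5 and 65.7 TPM in WT iBAT, a difference of 0.33 ± 0.04 (adjusted p = 0.0003). Psmb2 had 111.7, 107.9, 107.7, 109.9 and 101.7 TPM in LFABP-/- iBAT and 89.3, 87.1, 86.7, 80.1 and 81.1 TPM in WT iBAT (log2 0.34 ± 0.05, adjusted p = 0.00067). Both genes separated the genotypes completely. Psmb1 did so by a narrower margin, with 35.3, 32.1, 31.2, 30 and 29.7 TPM in LFABP-/- iBAT and 26.8, 27.5, 26.8, 27.7 and 29.3 TPM in WT iBAT (0.19, adjusted p = 0.0238). Psmb4, the remaining beta subunit, averaged 100.0 TPM in LFABP-/- iBAT and 94.3 TPM in WT iBAT and was not called (0.08, adjusted p = 0.246). In the alpha ring, Psma6 was the most abundant, with 180.7, 191.2, 169.4, 157.5 and 163.6 TPM in LFABP-/- iBAT, against 123.1, 130.8, 122.1, 124.7 and 154.3 TPM in WT iBAT (0.40 ± 0.08, adjusted p = 0.00351). WT replicate 5 was the nearest to the LFABP-/- range. Psma1 had 80.7, 74.6, 69.3, 64 and 62.2 TPM in LFABP-/- iBAT and 59.6, 54.5, 52.8, 51.3 and 58.0 TPM in WT iBAT (0.34, adjusted p = 0.00772). Psma5 had 70.4, 66.9, 56, 55.9 and 55.6 TPM in LFABP-/- iBAT and 49.5, 46.5, 45.7, 44.5 and 52.6 TPM in WT iBAT (0.34, adjusted p = 0.00898). In both, LFABP-/- replicates 1 and 2 were the highest and no values overlapped. Psma2 had 47.6, 42.0, 38.8, 38.4 and 38.1 TPM in LFABP-/- iBAT and 34.5, 32.2, 32.6, 32.9 and 36.0 TPM in WT iBAT (0.28, adjusted p = 0.0107). Psma4 had 74.6, 71.2, 68.3, 66.1 and 63.5 TPM in LFABP-/- iBAT and 61.8, 57.7, 58.5, 61.7 and 63.5 TPM in WT iBAT (0.18, adjusted p = 0.0281). Psma2 did not overlap between genotypes, and in Psma4 the lowest LFABP-/- value equalled the highest WT value. Psma3 (0.10) and Psma7 (0.07) were not called.

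In the 19S cap, the ATPase Psmc4 and the deubiquitinase Psmd14, which removes the ubiquitin chain as a substrate enters, had the largest differences. Psmc4 had 99.3, 85.3, 77.1, 76.5 and 80.1 TPM in LFABP-/- iBAT, against 64.5, 69.2, 56.8, 58.2 and 61.9 TPM in WT iBAT (log2 0.42 ± 0.08, adjusted p = 0.00343). Psmd14 had 42.5, 33.7, 32.6, 32.6 and 32.7 TPM in LFABP-/- iBAT and 28.1, 25.4, 26.5, 25.6 and 24.4 TPM in WT iBAT (0.41 ± 0.08, adjusted p = 0.00333). Neither gene overlapped between genotypes, and for Psmd14 LFABP-/- replicate 1 stood well above the rest. The lid subunits Psmd12 and Psmd3 rose as well. Psmd12 had 60.7, 57.3, 51.3, 52.9 and 51.4 TPM in LFABP-/- iBAT, against 43.0, 43.7, 39.4, 41.1 and 46.1 TPM in WT iBAT (0.35 ± 0.07, adjusted p = 0.00234). Psmd3 had 58.5, 53.3, 54.0, 52.4 and 50.8 TPM in LFABP-/- iBAT and 44.9, 45.3, 42.8, 42.1 and 41.0 TPM in WT iBAT (0.31 ± 0.05, adjusted p = 0.00154). The lowest LFABP-/- value exceeded the highest WT value in both. The ubiquitin receptor Psmd4 had 103.6, 112.3, 95.0, 95.5 and 86.6 TPM in LFABP-/- iBAT and 71.8, 87.1, 73.8, 69.3 and 80.6 TPM in WT iBAT, with WT replicate 2 just inside the LFABP-/- range (0.36 ± 0.08, adjusted p = 0.00745).

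The lid subunits Psmd8 and Psmd6 completed the larger differences of the cap. Psmd8 had 144.1, 113.5, 124.4, 141.9 and 118.0 TPM in LFABP-/- iBAT, against 106.3, 107.0, 99.4, 104.1 and 99.5 TPM in WT iBAT (0.31 ± 0.07, adjusted p = 0.00858). Psmd6 had 48.9, 45.0, 42.9, 39.1 and 47.7 TPM in LFABP-/- iBAT and 31.7, 34.2, 31.1, 33.4 and 44.1 TPM in WT iBAT (0.36 ± 0.10, adjusted p = 0.0174). Psmd8 did not overlap between genotypes, whereas WT replicate 5 of Psmd6 lay among the LFABP-/- libraries. Among the other ATPases, Psmc2 had 39.8, 35.5, 28.9, 28.5 and 30.5 TPM in LFABP-/- iBAT and 26.3, 25.0, 22.8, 23.5 and 27.8 TPM in WT iBAT (0.37 ± 0.10, adjusted p = 0.0159). Psmc1 had 100.9, 89, 89.6, 87.5 and 85.1 TPM in LFABP-/- iBAT and 77.0, 85, 78.5, 77.7 and 85.5 TPM in WT iBAT (0.16, adjusted p = 0.0522). The groups did not overlap in Psmc2, and in Psmc1 WT replicate 5 lay above LFABP-/- replicate 5. Psmc6 had 42.4, 39.3, 35.6, 33.0 and 36.7 TPM in LFABP-/- iBAT and 32.7, 32.2, 29.8, 30.9 and 37.8 TPM in WT iBAT (0.19, adjusted p = 0.0921). The scaffold Psmd1 had 36.7, 30.5, 29.4, 27.7 and 29.7 TPM in LFABP-/- iBAT and 27.2, 25.7, 26.8, 26.3 and 28.6 TPM in WT iBAT (0.19, adjusted p = 0.0709). WT replicate 5 was the highest WT library of both and lay inside the LFABP-/- range, and the call of Psmc6 ended when any of 8 libraries was left out. The ATPases Psmc3 (-0.01) and Psmc5 (0.07) and the non-ATPase subunits Psmd2 (0.15), Psmd7 (0.20), Psmd11 (0.17) and Psmd13 (0.10) were not called.

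Of the 4 activators, Psme3 alone was called. Psme3, the activator of the nucleus, had 63.1, 60.2, 57.5, 57.4 and 54.4 TPM in LFABP-/- iBAT, against 44.4, 46.2, 38.3, 42.2 and 42.4 TPM in WT iBAT (0.45 ± 0.06, adjusted p = 0.000553), with no overlap. Psme1 and Psme2 form the interferon-induced activator. Psme1 had 51.1, 64.1, 53.1, 53.9 and 46.6 TPM in LFABP-/- iBAT and 55.9, 43.2, 39.4, 49.3 and 48.2 TPM in WT iBAT (0.19, adjusted p = 0.188). Psme2 had 70.3, 76.8, 65.2, 67.1 and 58.3 TPM in LFABP-/- iBAT and 92.2, 71.0, 67.7, 72.6 and 83.1 TPM in WT iBAT (-0.19, adjusted p = 0.155). The genotypes overlapped in both. Psmf1, an inhibitor of the core in vitro, had 4.8, 4.8, 4.7, 4.7 and 4.3 TPM in LFABP-/- iBAT and 3.8, 4.7, 4.1, 3.7 and 3.8 TPM in WT iBAT (0.19 ± 0.07, adjusted p = 0.0502). Of the assembly factors, Psmg3, which helps to form the alpha ring, had 5.8, 4.8, 5.1, 4.7 and 4.1 TPM in LFABP-/- iBAT and 3.4, 3.6, 3.6, 3.9 and 3.4 TPM in WT iBAT (0.40 ± 0.08, adjusted p = 0.00466), without overlap. Psmd10, a chaperone of the cap's base, had 18.8, 17.3, 16.2, 15.4 and 17.4 TPM in LFABP-/- iBAT and 14.1, 16, 15.6, 14.7 and 15.4 TPM in WT iBAT (0.16, adjusted p = 0.0686), and the genotypes overlapped. Psmg4 (-0.23, adjusted p = 0.138) and Psmd9 (-0.13, adjusted p = 0.167) had negative differences that were not called.

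The 3 iBAT libraries labelled LFABP-/- whose Fabp1 went against the label were left out in 1 fit, which leaves 2 LFABP-/- and 5 WT libraries. There 30 of the 48 genes were called higher and 0 lower, where 23.2% of all genes tested were called higher and 18.4% lower. The LFABP-/- libraries kept, replicates 1 and 2, had liver markers averaging 6.96 and 7.46 on the log2 scale. Those left out, replicates 3, 4 and 5, had 7.25, 4.91 and 4.20, so this fit does not separate genotype from the liver markers. Other transcripts moved with genotype in iBAT. All 6 liver markers were higher in LFABP-/- iBAT, with a median log2 difference of 4.48, and 2 of 4 brown adipocyte markers were higher, Ucp1 by 0.50 and Elovl3 by 2.82. Of the adipocyte markers, Adipoq was lower (-0.53), and Cidec, Lep and Plin1 were not called. All 19 skeletal muscle markers had negative differences and none was called. Their sum was highest in WT replicate 5, at 48027.9 TPM, against 321.9 to 24523.9 TPM in the other iBAT libraries. With the mean of the liver markers as a covariate, 0 of the 48 genes were called higher and 1 lower (Psme2), where 1.51% of all genes tested were called higher and 4.38% lower, and Psmb5 stood at 0.57 (adjusted p = 0.112). Since the liver markers did not overlap between genotypes, genotype and the liver markers cannot be told apart in iBAT.

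In iWAT no proteasome gene was called. Of the 48 genes, 0 passed an adjusted p under 0.1 and 5 had an unadjusted p under 0.05, where 1.45% of all 14668 genes tested were called in either direction and 1523 had an unadjusted p under 0.05. Differences were small and mostly of 1 sign: 47 of 48 were positive, with a median of 0.15 and a range of -0.01 to 0.30, beside a median of 0.05 and a positive share of 60.6% over all genes tested. The smallest p was that of Psmb3, with 96.6, 93.0, 98.6, 93.8 and 101.5 TPM in LFABP-/- iWAT, against 85.3, 72.5, 85.7, 93.5 and 80.9 TPM in WT iWAT (0.21, adjusted p = 0.349). Psmb4 followed, with 209.5, 191.3, 205.6, 192.2 and 205.4 TPM in LFABP-/- iWAT and 171.9, 160.7, 197.5, 180.1 and 171.2 TPM in WT iWAT (0.19, adjusted p = 0.40). WT replicate 4 of Psmb3 and WT replicate 3 of Psmb4 reached into the LFABP-/- range. Psmc6 was the 1 gene of the 48 without overlap, with 50.7 to 56.6 TPM in LFABP-/- iWAT and 42.7 to 50 TPM in WT iWAT, and 1.45% of all genes tested had every LFABP-/- library above every WT library. The Psmb5 gene, the largest change in iBAT, had 403.5, 355.9, 288.5, 274.2 and 318.0 TPM in LFABP-/- iWAT and 279.5, 307.0, 316.8, 234.9 and 303.2 TPM in WT iWAT, and the ranges overlapped. Under library weights 25 of the 48 genes were called higher, but so were 49.8% of all genes tested. Without the library labelled LFABP-/- replicate 1, whose Fabp1 went against its label, 0 were called, beside 0.348% of all genes higher and 0.327% lower. Without the 5 libraries rich in lymphocyte markers, which leaves 2 LFABP-/- and 3 WT libraries, 0 were called, as for all genes tested, and 12 of the 48 had an unadjusted p under 0.05, where 11.3% of all genes did.

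In liver 0 of 47 genes tested were called higher and 2 lower, where 3.08% of all 11629 genes tested were called higher and 13.9% lower. Psmc3ip was not tested there because its mean was under 1 TPM. Psme4, the activator that acts on acetylated histones, had 25.6, 24.7, 25.7, 21.1 and 19.8 TPM in LFABP-/- liver, against 26.9, 27.9, 27.8, 28.9 and 27 TPM in WT liver. Every LFABP-/- library was below every WT library (-0.25 ± 0.09, adjusted p = 0.0928), as for 1004 of all genes tested. Psme2b had 1.1, 0, 1.0, 0 and 0 TPM in LFABP-/- liver and 5.1, 0.4, 2.5, 1.0 and 3.7 TPM in WT liver (-1.66 ± 0.54, adjusted p = 0.0782), so both groups were near the lower end of the scale. Both calls were close to the threshold: that of Psme4 held in 8 of 23 alternatives and that of Psme2b in 11 of 22. No gene of the 47 had every LFABP-/- library above every WT library, and 1.40% of all genes tested did.

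The 14 core subunits all had positive differences in liver without a call, from 0.03 to 0.31, and the 47 genes had a median of 0.05, against -0.10 over all genes tested. Psma4 had 76.2, 81.0, 94.8, 108.1 and 102.3 TPM in LFABP-/- liver, against 74.6, 68.4, 66.2, 74.6 and 87.2 TPM in WT liver (0.31, adjusted p = 0.108). Psmb3 had 63.1, 60.9, 70.4, 78.3 and 83.7 TPM in LFABP-/- liver and 58.7, 58.3, 48.8, 58.1 and 65.8 TPM in WT liver (0.29, adjusted p = 0.11). In each, WT replicate 5 was the highest WT library, and it overlapped the LFABP-/- libraries. WT replicate 5 also had the highest macrophage markers of the liver libraries, with a mean log2 of 5.71 against 3.84 to 4.54 in the other 9. With macrophage markers as a covariate, 5 of the 47 genes were called higher and 1 lower, where 4.31% of all genes tested were higher and 13.1% lower. Without WT replicate 5, 5 of the 47 genes were called higher (Psma4, Psmb2, Psmb3, Psmc4 and Psmg2) and 0 lower, where 4.46% of all genes tested were higher and 11.9% lower. The median-ratio scaling, in which the median gene is set to equal levels in all libraries, called 19 of the 47 higher and 1 lower, with 9.98% of all genes called higher.

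Whether the genotype effect differed between tissues was tested as the difference of differences in 1 fit of all 30 libraries. The effect on Psmb5 was larger in iBAT than in either of the other tissues. Between iBAT and iWAT, 2 of the 48 genes had a more positive effect in iBAT, where 4.99% of 15564 genes did: Psmb5 by 0.64 ± 0.16 (adjusted p = 0.0149) and Psmb7 by 0.35 ± 0.12 (adjusted p = 0.0713). The call of Psmb5 held in all 18 alternatives and that of Psmb7 in 10 of 18. Without the libraries whose Fabp1 went against their label, 4 genes were called, where 6.72% of all genes were. Leaving out 1 mouse gave 1 gene (without LFABP-/- replicate 2, 2.76% of all genes) to 4 genes (without WT replicate 5, 5.17%).

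Between liver and iBAT, 9 of the 48 genes had a more negative effect in liver, where 10.3% of all genes did. Psmb5 had 236.1, 233.8, 247.8, 316.6 and 296.5 TPM in LFABP-/- liver, against 235.4, 232.5, 202.7, 240.3 and 260.9 TPM in WT liver, and its effect differed by -0.65 ± 0.16 (adjusted p = 0.0100). Psme3 had 39.3, 37.5, 41.7, 40.0 and 39.3 TPM in LFABP-/- liver and 37.0, 41.0, 40.7, 38.7 and 48.8 TPM in WT liver (difference of effects -0.50 ± 0.12, adjusted p = 0.00625). Both genes overlapped between genotypes in liver and did not in iBAT. Psmd3 (-0.37, adjusted p = 0.00771), Psmd12 (-0.38, adjusted p = 0.0201), Psmb7 (-0.38, adjusted p = 0.0339), Psma6 (-0.33, adjusted p = 0.0601), Psmd6 (-0.36, adjusted p = 0.0625), Psme4 (-0.44, adjusted p = 0.0793) and Psmd4 (-0.35, adjusted p = 0.0987) were the others. The calls of Psmb5, Psme3 and Psmd3 held in all 18 alternatives. When 1 mouse was left out, 4 genes (without LFABP-/- replicate 1, 8.01% of all genes) to 12 genes (without LFABP-/- replicate 5, 10.9%) were called. Between liver and iWAT 0 of the 48 genes were called and 3 had an unadjusted p under 0.05, where 3.54% of all genes were called in either direction and 14.2% had an unadjusted p under 0.05. The comparison of iBAT with iWAT and that of liver with iBAT share the iBAT libraries.

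None of the immunoproteasome subunits was called between genotypes in any tissue with all 5 libraries of a group at equal weight, and in iBAT their differences were negative where most constitutive subunits rose. Psmb8 had 3.4, 11.1, 3.9, 5.2 and 3.6 TPM in LFABP-/- iBAT, against 25.8, 5.2, 6.4, 6.0 and 9.8 TPM in WT iBAT. Psmb9 had 1.8, 5.0, 2.1, 3.1 and 2.1 TPM in LFABP-/- iBAT and 12.7, 2.9, 3.1, 3.1 and 4.8 TPM in WT iBAT. Psmb10 had 16.7, 22.4, 15.6, 18.6 and 15.6 TPM in LFABP-/- iBAT and 35.1, 14.2, 16.8, 16.9 and 16.7 TPM in WT iBAT. In each gene WT replicate 1 was the highest library and LFABP-/- replicate 2 the highest of its genotype, and the groups overlapped. The differences of -0.78 (Psmb8), -0.66 (Psmb9) and -0.09 (Psmb10) were not called, with adjusted p of 0.187, 0.200 and 0.755. Without WT replicate 1 that of Psmb8 was -0.40 (adjusted p = 0.351), that of Psmb9 -0.31 (adjusted p = 0.365) and that of Psmb10 0.13 (adjusted p = 0.413). Without LFABP-/- replicate 2 that of Psmb8 was -1.05 (adjusted p = 0.074), a call that rests on leaving out that library.

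In liver, Psmb8 had 16.4, 21.7, 18.6, 24.7 and 24.5 TPM in LFABP-/- mice, against 39.5, 21.6, 23.9, 17.9 and 39.7 TPM in WT mice. Psmb9 had 10.4, 12.7, 10.7, 17.1 and 15.2 TPM in LFABP-/- liver and 32.8, 9.7, 12.1, 6.9 and 17.1 TPM in WT liver. Psmb10 had 27.8, 36.0, 34.9, 55.7 and 50.4 TPM in LFABP-/- liver and 65.9, 40.5, 37.0, 32.3 and 57.4 TPM in WT liver. WT replicates 1 and 5 were the highest WT libraries of all 3 genes, and no difference was called (-0.36, -0.06 and -0.18, adjusted p from 0.309 to 0.919). In the same mouse, WT replicate 1, the peptide transporter Tap1 of antigen presentation was also high. It had 39.4 TPM in its liver, against 11 to 28.7 TPM in the other WT livers, and 14.7 TPM in its iBAT, against 4.1 to 7.0 TPM in the other WT libraries.

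In iWAT the immunoproteasome genes varied widely within each genotype. Psmb8 had 57.6, 102.4, 144.1, 138.3 and 47.6 TPM in LFABP-/- iWAT, against 70.3, 45.1, 99.6, 165.5 and 68.7 TPM in WT iWAT (0.13, adjusted p = 0.973). Psmb9 had 26.2, 45.5, 70.5, 60.2 and 19.3 TPM in LFABP-/- iWAT and 31.7, 20.5, 41.3, 72.3 and 30.4 TPM in WT iWAT (0.14, adjusted p = 0.970). Psmb10 had 114.9, 114.4, 155.2, 145.6 and 93.0 TPM in LFABP-/- iWAT and 106.2, 70.6, 116.8, 148.5 and 88.2 TPM in WT iWAT (0.25, adjusted p = 0.835). Under library weights, where 49.8% of all genes tested were called higher, all 3 were called higher as well, Psmb8 by 1.01 (adjusted p = 0.0136), Psmb9 by 1.02 (adjusted p = 0.0133) and Psmb10 by 0.70 (adjusted p = 0.00799). The highest libraries were LFABP-/- replicates 3 and 4 and WT replicate 4 in all 3 genes. Their coefficients of variation were 20.4% to 49.1% in LFABP-/- iWAT and 27.9% to 51.8% in WT iWAT, where the median of the other 43 genes was 9.2% in LFABP-/- and 8.1% in WT libraries.

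The 5 iWAT libraries with high lymphocyte markers were those with high Psmb8 and Psmb9. All 19 lymphocyte markers were detected in iWAT, with a summed level of 46.3 to 2317.6 TPM in LFABP-/- and 26 to 3073.0 TPM in WT libraries. In the 5 libraries with high markers Psmb8 had 99.6 to 165.5 TPM, against 45.1 to 70.3 TPM in the other 5. Psmb9 had 41.3 to 72.3 TPM in those with high markers and 19.3 to 31.7 TPM in the others, and Psme1 had 168.4 to 232.0 TPM and 109.7 to 132.2 TPM. Psme2b also lay above without overlap, while Psmc1 and Psmd1 lay below, and the other 42 genes overlapped. Psmb10 overlapped by 1 library, with 114.4 to 155.2 TPM in those with high markers and 70.6 to 114.9 TPM in the others. These libraries were divided by the markers and not by a label, so the values are a description without a test. In iBAT and liver the summed level of the same markers was at most 26.4 TPM.

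**Figure D3:**
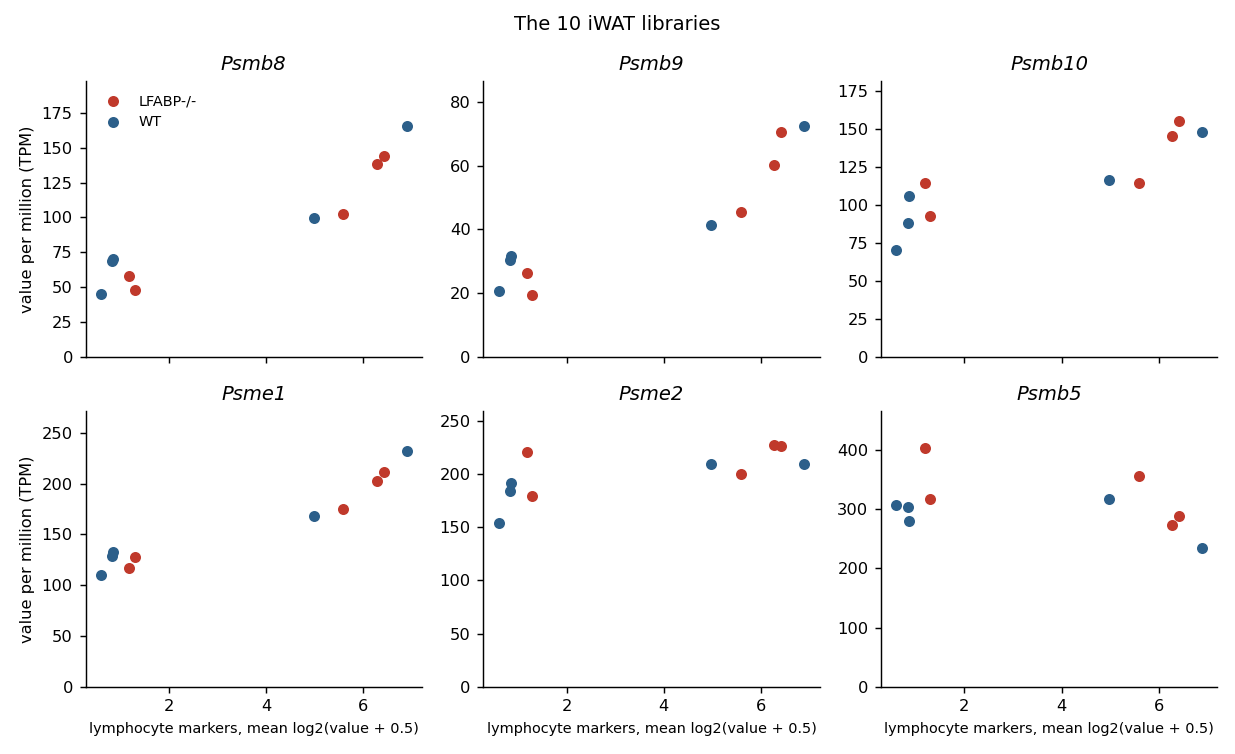
TPM of Psmb8, Psmb9, Psmb10, Psme1, Psme2 and Psmb5 in the 10 iWAT libraries of LFABP-/- and WT mice (vertical axes) against the mean log2 level of 19 lymphocyte markers (horizontal axis). Psmb8, Psmb9 and Psme1 lie higher in the 5 libraries whose markers average 4.98 to 6.89 than in the 5 at 0.60 to 1.30, and Psmb5 does not separate them.

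The ratio of each immunoproteasome subunit to the constitutive subunit whose place it takes was computed with 0.5 TPM added to both values, so the scaling of a library cancels except at low values, as those of Psmb8 and Psmb9 in iBAT. On this scale differences between genotypes were tested by exact permutation, two-sided, over the 252 ways to assign 10 libraries, and p was adjusted over 9 tests. In iBAT the log2 ratio of Psmb8 to Psmb5 was -6.20 ± 0.54 in LFABP-/- and -4.60 ± 0.91 in WT libraries (SD, n = 5 each), a difference of -1.60 (exact permutation p = 0.0159, adjusted p = 0.143). That of Psmb10 to Psmb7 differed by -0.51 (exact permutation p = 0.0317, adjusted p = 0.143) and that of Psmb9 to Psmb6 by -0.84 (exact permutation p = 0.0635, adjusted p = 0.143). With 0.1 or 1 TPM added instead, the difference was -1.65 or -1.55 for Psmb8 to Psmb5 and -0.91 or -0.77 for Psmb9 to Psmb6. Without WT replicate 1 the 3 differences were -1.22 for Psmb8 to Psmb5, -0.28 for Psmb10 to Psmb7 and -0.47 for Psmb9 to Psmb6. LFABP-/- replicate 2 overlapped the WT libraries in the ratio of Psmb8 to Psmb5, and the other 4 LFABP-/- libraries lay below all WT libraries. In liver the ratio of Psmb8 to Psmb5 differed by -0.54 (exact permutation p = 0.0635, adjusted p = 0.143), and the remaining 5 comparisons had differences of -0.21 to 0.19 and exact permutation p of at least 0.421. None of the 9 passed an adjusted p under 0.1. Psmb8 made up 1.30% ± 0.58 of the sum of Psmb8 and Psmb5 in LFABP-/- iBAT and 4.43% ± 3.41 in WT iBAT (SD, n = 5 each). This is a share of TPM and says nothing of the assembled particle. The annotated exons cover 3381 bases in Psmb8 and 899 in Psmb5, so its size also depends on the lengths that divide the values. WT replicate 1 had 10.4% and the other 4 WT libraries 2.08% to 4.03%, and the WT mean without it was 2.94%.

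Between tissues the ratios differed in nearly every mouse. The log2 ratio of Psmb8 to Psmb5 in iBAT minus that in iWAT was -3.57, with a range over mice of -5.45 to -1.10, and the differences were -2.60 for Psmb9 to Psmb6 and -2.34 for Psmb10 to Psmb7, each lower in iBAT in 10 of 10 mice (exact sign-flip permutation test over 1024 assignments, p = 0.00195, the smallest it allows, adjusted p = 0.0022). Between liver and iWAT they differed by -1.52 for Psmb8 to Psmb5, -0.97 for Psmb10 to Psmb7 (10 of 10 mice lower in liver) and -1.25 for Psmb9 to Psmb6 (9 of 10 mice, exact permutation p = 0.00586). Between liver and iBAT they were higher in liver by 2.05, 1.34 and 1.38 in 10 of 10 mice. The lymphocyte markers moved with the size of the contrasts with iWAT: the Psmb8 to Psmb5 ratio differed between iBAT and iWAT by -4.38 on average in the 5 mice with high markers in iWAT and by -2.75 in the other 5, and between liver and iWAT by -2.32 and -0.73. The contrasts of liver with iBAT do not use those libraries.

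**Figure D4:**
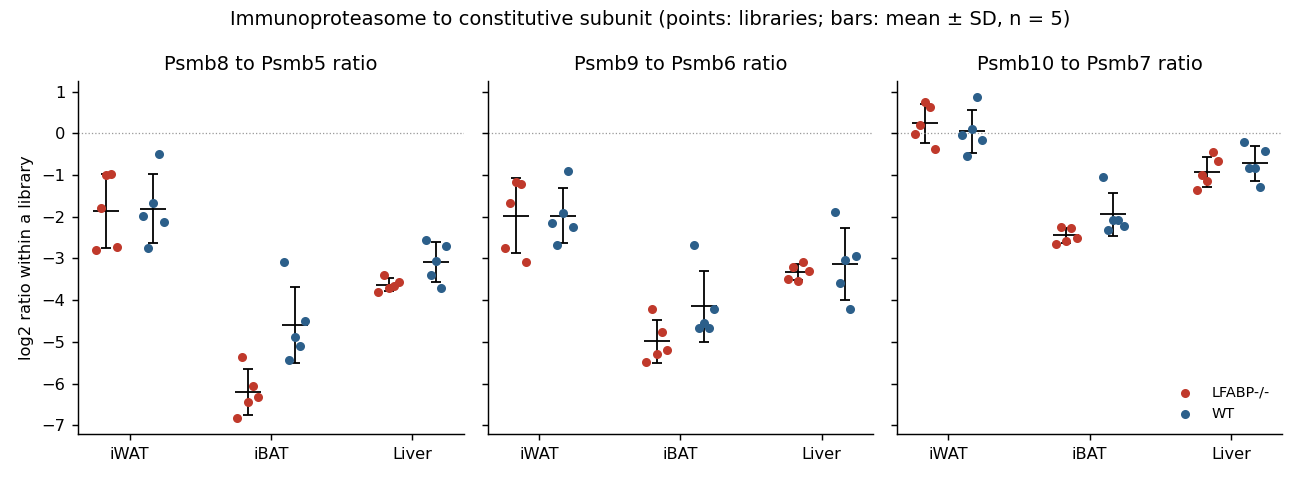
Log2 ratio of each immunoproteasome subunit to its constitutive counterpart in each library (points: LFABP-/- red, left; WT blue, right) by tissue, with the mean ± SD of 5 libraries. The ratio of Psmb8 to Psmb5 averages -6.20 in LFABP-/- and -4.60 in WT iBAT, and each ratio is highest in iWAT and lowest in iBAT.

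How the tissues differed in the level of the 48 genes, the immunoproteasome included, depended on the scaling. As deposited, 0 of the 48 genes were higher and 46 lower in iBAT than in iWAT, where 85.3% of all genes were lower, and the median of the 48 genes was -0.91, against -1.35 over all genes tested. Psmb5 (-0.03) and Psmd8 (-0.05) were not called. Between liver and iWAT 2 genes were higher (Psmd9 and Psmg3), where 13.8% of all genes were, and 46 lower, where 80.9% were, with a median of -0.65, against -1.27 over all genes. Between liver and iBAT 29 were higher, where 40.5% of all genes were, and 12 lower, where 37.4% were, with a median of 0.16, against 0.04. Of the 48 genes, 45 had their highest mean in iWAT.

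Rescaled without the mitochondrially encoded genes, 21 of the 48 genes were higher in iBAT than in iWAT (20.5% of all genes) and 18 lower (65.0%). Under the same rescaling 5 were higher in liver than in iBAT (18.8% of all genes) and 42 lower (67.2%). Under median-ratio scaling, 39 were higher in iBAT than in iWAT (38.7% of all genes) and 6 lower (42.9%), and 41 were higher in liver than in iWAT (43.1% of all genes) and 3 lower (43.1%). The median of all genes between iBAT and iWAT was -1.35 as deposited, -0.56 without the mitochondrial genes and -0.04 under median-ratio scaling, and the median of the 48 genes lay above it under all 3. Psmb5 changed sign, at -0.03, 0.93 and 1.44.

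The immunoproteasome kept its direction between iBAT and iWAT under the 3 scalings. The difference of Psmb8 (iBAT minus iWAT) was -3.60 as deposited, -2.70 without the mitochondrial genes and -2.17 under median-ratio scaling (adjusted p at most 1.09e-08). Psmb9 (-3.27, -2.43 and -1.88) and Psmb10 (-2.59, -1.65 and -1.13) were also lower and called under each. Psmd9, a chaperone of the cap's base, had its highest level in liver. Its annotated span on the plus strand begins at base 123169413, well before its RefSeq promoter window at 123227940. Which transcripts of that span gave the reads was not tested. It had 23.3, 32.9, 22.5, 29.4 and 28.3 TPM in LFABP-/- liver, 5.6, 4.9, 5.0, 4.9 and 4.6 TPM in LFABP-/- iBAT and 13.9, 12.7, 14.9, 15.0 and 14.2 TPM in LFABP-/- iWAT. WT libraries had 23.5 to 33.8 TPM in liver, 5.0 to 6.3 TPM in iBAT and 11.7 to 14.1 TPM in iWAT. The 3 tissues did not overlap, and over both genotypes Psmd9 was higher in liver than in iBAT by 2.32, 1.42 and 2.25 under the 3 scalings and higher in liver than in iWAT by 1.04, 1.03 and 2.36, all called. Psmg3 was likewise higher in liver than in iWAT (0.28, 0.27 and 1.56) and than in iBAT (1.12, 0.23 and 1.05).

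**Figure D5:**
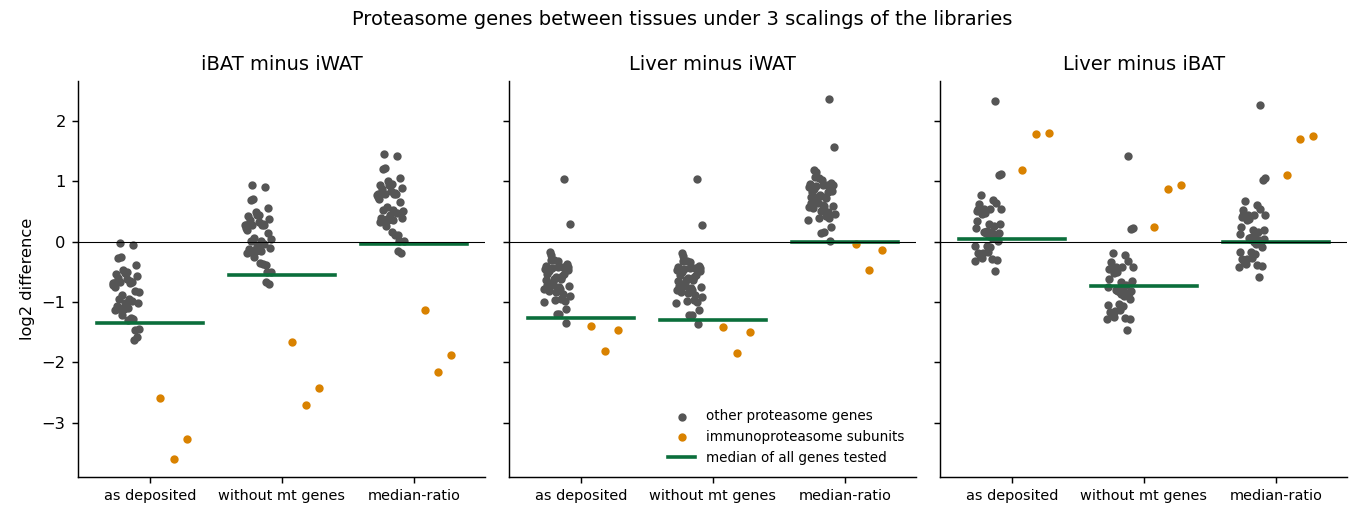
Log2 difference between tissues of the proteasome genes (grey) and the immunoproteasome subunits (orange), with the median of all genes tested (green bar), as deposited, rescaled without mitochondrially encoded genes and under median-ratio scaling. The grey points cross 0 between iBAT and iWAT as the scaling changes, whereas the 3 immunoproteasome points stay below 0 and below the green bar under each.

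Genes that act with the proteasome were also measured. In iBAT, 9 of 16 proteasome-associated genes without a Psm symbol were higher in LFABP-/- mice and 2 lower, where 22.3% of all genes tested were higher and 25.5% lower, with a median of 0.22. The ubiquitin receptor Rad23b, which delivers substrates, had 43.6, 39.6, 34.1, 34.3 and 33.9 TPM in LFABP-/- iBAT, against 24.7, 24.2, 22.1, 23.2 and 28.6 TPM in WT iBAT (0.58, adjusted p = 0.00107), without overlap. Ddi2 (0.49), the protease that activates Nfe2l1, Adrm1 (0.41), a receptor of the cap, and the shuttle Ubqln1 (0.41) were also higher, while Ubqln2 (-0.64, adjusted p = 0.000299) and the small cap subunit Sem1 (-0.16, adjusted p = 0.0786) were lower. Uba1, which activates ubiquitin, was higher (0.26) and Ubb, which encodes ubiquitin, lower (-0.37, adjusted p = 0.00377). Of 8 genes that control proteasome transcription, 1 was higher (Syvn1) and 2 lower (Nfyb and Ngly1), beside the same shares of all genes. Nfe2l1 itself averaged 207.9 TPM in LFABP-/- iBAT and 205.7 TPM in WT iBAT and was not called.

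Of 12 antigen presentation and interferon genes, 0 were higher and 4 lower in LFABP-/- iBAT, where 22.3% of all genes tested were higher and 25.5% lower. Their median was -0.42 and all 12 were negative. Irf1, a transcription factor induced by interferon, had 4.5, 6.8, 6.1, 7.0 and 4.1 TPM in LFABP-/- iBAT, against 21, 8.8, 10.4, 9.7 and 9.0 TPM in WT iBAT (-0.93, adjusted p = 0.0118). Every LFABP-/- library was below every WT library. Tap1 (-1.06, adjusted p = 0.0528), Ifngr1 (-0.63) and the peptide trimmer Erap1 (-0.61) were the others. Exons of Tap1 overlap those of Psmb9, and WT replicate 1 had the highest Tap1 of the WT iBAT libraries. In liver 1 of the 12 was lower, Irf1 (-0.57, adjusted p = 0.0919), and of the remaining lists Ubb, Ubqln2 and Ddi2 were lower and Syvn1 higher. Of all genes tested in liver, 13.9% were lower and 3.08% higher. In iWAT 0 genes of these 4 lists were called, where 1.45% of all genes tested were called in either direction.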

How the data were processed

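Poly(A)-selected RNA of iWAT, iBAT and liver from 10 mice was sequenced in single reads of 100 bases with a kit that does not mark strand. The authors processed the reads in CLC Genomics Workbench 20.0.4, with genome build GRCm38 and Ensembl release 92 (per their processing notes), and deposited 1 table of values with 1 decimal, whose header names RPKM. These deposited values are treated as TPM, because each of the 30 libraries sums to between 999967 and 999996. Over 76 ribosomal protein genes log2 value fell with log2 exon length with a slope of -0.89. That slope bears on the division by length only and cannot tell TPM from RPKM. Since the depth is unknown, counting intervals and count models were not used, and 0 columns of per-sample values were left out.

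Values were tested as log2(TPM + 0.5) with limma 3.58.1 (R 4.3.3, statmod 1.5.0, intensity trend), which understates the change of genes with low values. Genes with a mean of at least 1 TPM in the libraries of a fit were kept, p-values were adjusted by Benjamini-Hochberg over all genes of the fit, with 0.1 as the threshold for a call. Genotypes were compared within each tissue (5 LFABP-/- and 5 WT mice), and tissues and differences of genotype effects in 1 fit of all 30 libraries in which mouse was a random block, since each mouse gave all 3 tissues (consensus correlation -0.0151). Replicate numbers pair no LFABP-/- mouse with a WT mouse. Subunit ratios were compared by exact permutation tests. The fits were tested on simulated data, and matplotlib 3.10.9, numpy 2.4.6 and pandas 2.3.3 (Python 3.11.15) served for summaries and plots.

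The proteasome genes and all gene lists were chosen with earlier results of these data known. Any of the 48 genes could be named. Values per library were given for the catalytic, immunoproteasome and Psme1 and Psme2 genes, for genes called between genotypes or with an effect that differed between tissues (in the tissues where they were called), and for the 2 genes with the smallest p in each tissue. Of the 18 proteasome-associated genes listed, 16 were found. Alternatives were the pseudocount (0.1 and 1), the filter (none, and a mean of at least 20), the threshold (0.05), the intensity trend, library weights, median-ratio scaling, rescaling without 37 mitochondrially encoded genes, marker covariates, a term for the 2 prefixes of the mouse names (WT replicates 4 and 5 carry another prefix in the iWAT columns than in those of iBAT and liver, and the prefix of iBAT and liver was used in each tissue), the replicate block, leaving out libraries whose Fabp1 went against their label and leaving out each library or mouse in turn. The result of 1 gene outside the 48 members is not reported here.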

Additional observations from a re-analysis of the deposited data

Results flagged for a closer look

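Within groups of 5 libraries, 17 of 216 sets of values had 1 library standing apart from the other 4 by Dixon's criterion, and chance sets about 1 in 20 groups apart. In LFABP-/- iBAT these were Psmb8 in replicate 2 (11.1 TPM), Psmc1 (100.9 TPM) and Psmd14 (42.5 TPM) in replicate 1, all high, and Psmf1 in replicate 5 (4.3 TPM), low. In LFABP-/- iWAT they were Psmb1 in replicate 2 (59.5 TPM) and Psme3 in replicate 1 (81.6 TPM), both low. In WT iBAT replicate 1 was high in Psmb8 (25.8 TPM), Psmb9 (12.7 TPM), Psmb10 (35.1 TPM) and the log2 ratios of Psmb9 to Psmb6 (-2.68) and of Psmb10 to Psmb7 (-1.04). WT iBAT replicate 5 was high in Psma6 (154.3 TPM), Psmb7 (79.6 TPM) and Psmd6 (44.1 TPM), and WT iBAT replicate 4 in Psmb3 (68.5 TPM). In WT iWAT replicate 1 was high in Psmd12 (74.2 TPM), and in WT liver replicate 5 in Psmd8 (130.4 TPM).

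The genotype effect differed between tissues in 11 tests of the difference itself (limma, adjusted p under 0.1). The effect in iBAT minus that in iWAT was 0.64 for Psmb5 and 0.35 for Psmb7 on the log2 scale. The effect in liver minus that in iBAT was -0.65 for Psmb5, -0.50 for Psme3, -0.44 for Psme4, -0.38 for Psmb7, -0.38 for Psmd12, -0.37 for Psmd3, -0.36 for Psmd6, -0.35 for Psmd4 and -0.33 for Psma6.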

How the results depend on the processing

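Of the counts of called genes, 159 of the values under other settings stayed within 1.5 times of the value reported and 41 did not, and when 1 library or mouse was left out 152 did and 28 did not. Shares of all genes tested that had the same call are given in brackets. Library weights gave 25 higher in iWAT (49.8%), 2 lower in iBAT (27.3%), and 3 higher (4.66%) and 1 lower (13.5%) in liver. With liver markers as a covariate, 0 were higher (1.51%) and 1 lower (4.38%) in iBAT. Skeletal muscle markers as a covariate gave 1 lower in iBAT (26.4%). Lymphocyte or macrophage markers as a covariate each gave 5 higher (5.49% and 4.31%) and 1 lower (9.89% and 13.1%) in liver. Rescaling without the mitochondrial genes gave 2 lower in iBAT (30.8%) and 3 higher (3.69%) and 0 lower (6.46%) in liver. It also gave 21 higher and 18 lower between iBAT and iWAT, 5 higher and 42 lower between liver and iBAT, 1 larger effect in iBAT than in iWAT, and 1 larger and 4 smaller in liver than in iBAT. Median-ratio scaling gave 19 higher (9.98%) and 1 lower (7.19%) in liver. Between iBAT and iWAT it gave 39 higher (38.7%) and 6 lower (42.9%), and between liver and iWAT 41 higher (43.1%) and 3 lower (43.1%). It gave 5 larger effects in iBAT than in iWAT (10.7%) and 4 smaller in liver than in iBAT (12.9%). The prefix term gave 2 higher (3.13%) and 0 lower (14.6%) in liver. There 1 was lower without the intensity trend (13.6%), 0 without a filter (5.51%) and 1 with a mean of at least 20 (11.3%). That last filter left 1 gene higher between liver and iWAT (17.8%). An adjusted p under 0.05 left 0 lower in liver, 1 larger effect in iBAT than in iWAT and 5 smaller in liver than in iBAT. In either direction it left 1012 of all 11629 genes, 1054 of 15564 and 1678 of 15564 in these comparisons. The replicate block gave 25 higher (22.7%) and 1 lower (26.1%) in iBAT and 0 higher (2.26%) and 1 lower (8.56%) in liver. In iWAT it gave 0 in either direction (0.791% higher and 0.9% lower). The replicate numbers pair no mice across genotypes. With no replicate block the tissue fit gave 3 larger effects in iBAT than in iWAT (5.1%), and otherwise the same counts. The covariates for liver and macrophage markers and the fits without the 5 lymphocyte-rich libraries or without the LFABP-/- libraries with Fabp1 above all WT were chosen after seeing the data. Without those Fabp1 libraries 4 genes had a larger effect in iBAT than in iWAT (6.72%). The cause of these shifts was not tested.

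Leaving out 1 library or mouse gave the following ranges, with those of all genes tested in brackets. In iBAT 21 to 30 were higher (19.4% to 25.8%) and 0 to 3 lower (22.1% to 25.5%). In liver 0 to 5 were higher (0.946% to 4.46%) and 0 to 2 lower (5.48% to 15.6%). Effects were larger in iBAT than in iWAT for 1 to 4 (2.76% to 6.38%) and smaller for 0 to 1 (3.46% to 9.3%). In liver they were smaller than in iWAT for 0 to 2 (0.565% to 8.89%) and smaller than in iBAT for 4 to 12 (7.09% to 11.3%). The ratio of Psmb8 to Psmb5 between genotypes then ranged over -0.29 to 0.27 in iWAT, -1.81 to -1.22 in iBAT and -0.70 to -0.41 in liver, that of Psmb9 to Psmb6 over -0.20 to 0.28 in iWAT, -1.03 to -0.47 in iBAT and -0.46 to 0.12 in liver, and that of Psmb10 to Psmb7 over -0.60 to -0.28 in iBAT. The Psmb8 to Psmb5 ratio in iBAT (without LFABP-/- replicate 2), that in liver (without WT replicate 4) and the Psmb10 to Psmb7 ratio in iBAT (without WT replicate 2) each reached an adjusted p of 0.0714 (exact permutation).

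Signs changed for these single differences. Psmb8, genotype in iWAT, was -0.20 without the lymphocyte-rich libraries, -0.19 with lymphocyte markers as a covariate, 1.01 with library weights and -0.084 to 0.38 with 1 library left out. Psmb9, genotype in iWAT, was -0.26, -0.18, 1.02 and -0.061 to 0.40 in the same settings. Psmb10, genotype in iBAT, was 0.056 with lymphocyte markers, 0.037 without the libraries with Fabp1 above all WT and -0.19 to 0.13 with 1 library left out. Psma4, genotype in iBAT, was -0.0092 and Psmc6, genotype in iBAT, -0.032 with liver markers. Psmb9, genotype in Liver, was 0.051 with lymphocyte markers, 0.054 with macrophage markers, 0.048 under median-ratio scaling, 0.0040 without mitochondrial genes, 0.014 with muscle markers and -0.30 to 0.25 with 1 library left out. Psmb5, tissue iBAT minus iWAT, was 1.44 under median-ratio scaling, 0.93 without mitochondrial genes, 0.11 without the libraries with Fabp1 above all WT and -0.060 to 0.0080 with 1 mouse left out. Under median-ratio scaling Psme2, tissue iBAT minus iWAT, was 0.0058, Psmd9, tissue iBAT minus iWAT, 0.11, and Psmg3, tissue iBAT minus iWAT, 0.51 (0.043 without mitochondrial genes). Under the same scaling Psmb5, tissue Liver minus iWAT, was 1.07, Psme1, tissue Liver minus iWAT, 0.39, Psme2, tissue Liver minus iWAT, 0.018 and Psmf1, tissue Liver minus iWAT, 0.83. Without mitochondrial genes Psme1, tissue Liver minus iBAT, was -0.32 and Psme2, tissue Liver minus iBAT, -0.86.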
